A study of Homo sapiens with 6 samples.

Results

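The full-length ZNF469 regions that sat at the promoters of protein-coding genes were examined in LX-2 cells, an immortalized human line of hepatic stellate cells, which make collagen in the injured liver. A region was counted as a promoter region when its summit, the position of highest signal, lay within 1 kb of the start of any GENCODE transcript of a protein-coding gene. This rule took 4328 of the 19108 regions in the full-length list, or 22.7%. Of the other 14780 regions, 904 lay within 1 kb of the start of a noncoding gene only and 13876 lay farther from any annotated start.

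CUT&RUN, in which an antibody brings a nuclease to its target so that nearby chromatin is cut out and sequenced, was run with an antibody against ZNF469. The lines carried a piggyBac transposon with a doxycycline-inducible human transgene that encodes full-length ZNF469 or else dZF-ZNF469, in which zinc finger sequence is deleted. The series design gives puromycin for their selection, while the study's methods give Geneticin. Both groups of 3 libraries came from cells that received doxycycline at 1 ug/mL for 24 h. Each group carries its own clone name, and the labels do not say whether that is a clone of cells or of plasmid. The antibody also recognizes the cell's own ZNF469, so transgene and endogenous protein cannot be told apart, and no list from uninduced cells or from a nonspecific antibody was analysed here. The authors deposited 1 list per group, made from its 3 libraries together. No value therefore has a replicate error, no comparison of the constructs can be tested, and the 95% intervals given below cover counting error only.

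A promoter is the stretch of DNA at which RNA polymerase II begins a transcript. Many human promoters, above all those of housekeeping genes, lie in CpG islands, which are rich in G, C and the CG dinucleotide, while promoters of tissue-specific genes are often poor in CpG. The CCAAT box is a short element of many promoters, typically a short distance upstream of the start, and is bound by the trimeric factor NF-Y. GC boxes are bound by SP and KLF factors, and AP-1, the dimer of FOS and JUN proteins, binds TGANTCA, chiefly at enhancers. Whether any of these factors was present at these regions was not measured.

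To show what the regions looked like, 6 promoter regions with 3 CCAAT boxes within 60 bp of the summit are given. They are those of highest fold with such a cluster among regions with at most 30 untranslated bases in the window. Each run of 121 bases is hg38, has the summit at its middle and is read along the nearest gene, with CCAAT or its reverse, ATTGG, in capitals.
FAM185A: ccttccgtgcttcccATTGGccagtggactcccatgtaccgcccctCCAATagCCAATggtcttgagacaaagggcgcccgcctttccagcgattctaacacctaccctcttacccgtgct
TMEM97: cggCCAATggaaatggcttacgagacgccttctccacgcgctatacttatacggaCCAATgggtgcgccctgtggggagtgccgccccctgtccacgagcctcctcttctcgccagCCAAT
LCA5: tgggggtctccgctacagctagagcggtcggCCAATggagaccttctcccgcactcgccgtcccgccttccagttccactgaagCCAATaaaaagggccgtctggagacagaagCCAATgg
TYK2: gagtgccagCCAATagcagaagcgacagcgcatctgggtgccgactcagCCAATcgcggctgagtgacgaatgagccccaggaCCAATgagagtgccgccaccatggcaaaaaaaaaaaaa
NARF: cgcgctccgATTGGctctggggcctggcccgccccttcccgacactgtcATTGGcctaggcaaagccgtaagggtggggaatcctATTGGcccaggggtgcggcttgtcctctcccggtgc
PPP2R5D: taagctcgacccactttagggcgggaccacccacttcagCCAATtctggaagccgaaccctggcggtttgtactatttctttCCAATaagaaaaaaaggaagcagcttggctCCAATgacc

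The FAM185A window (chr7:102748753-102748873, plus strand) was outside protein-coding genes, 158 bp upstream of the start, with a pileup of 31 fragments (95% Poisson limits 21.1 to 44) and a fold of 15.1. The fold is the deposited enrichment of the summit over its local background, with a single fragment added to each before dividing. It is therefore lower than the plain ratio of pileup to background. The pileup is the number of pooled fragments over the summit. The TMEM97 window (chr17:28318999-28319119, plus strand), at a gene for a sterol-binding membrane protein, lay 141 bp upstream, where 39 fragments (27.7 to 53.3) gave a fold of 13.6. At LCA5, which encodes a ciliary protein, the window (chr6:79537478-79537598, minus strand) centred 80 bp upstream, with 64 fragments (49.3 to 81.7) and a fold of 12.8. These intervals overlap for FAM185A and TMEM97, while that of LCA5 lies above FAM185A's. At TYK2, a Janus kinase gene, the window (chr19:10380664-10380784, minus strand) centred 116 bp upstream, with 22 fragments (13.8 to 33.3) and a fold of 12.1. The NARF window (chr17:82458539-82458659, plus strand), in an intron by annotation and 50 bp upstream of the nearest start, had 31 fragments and a fold of 12. The PPP2R5D window (chr6:42984365-42984485, plus strand), at a gene for a regulatory subunit of the phosphatase PP2A, centred 128 bp upstream, again with 31 fragments, and had a fold of 11.9. Of these 6, 5 were CpG-rich and FAM185A was of the intermediate class defined below.

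Promoter regions were about as strong as the rest of the list. Their median fold was 7.45 (quartiles 6.38 and 8.88), against 7.35 (6.3 and 8.61) for the other full-length regions. The median −log10 p-value was 15.4 against 15, and the median pileup was 21 fragments (Poisson limits 13 to 32.1) against 20. The local background, the number of fragments the peak caller expected at the summit, had medians of 1.84 and 1.81. Promoter regions were narrower, with a median width of 414 bp against 446 bp. The highest fold in the whole list, 49.6, was not at a protein-coding promoter, where the highest was 24.1.

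Summits gathered just upstream of the start. Of the 4328 summits, 3197 (73.9%) lay upstream of the nearest start, with a median position of −65 bp (quartiles −157 and 2). The 100 bp before the start held 1563 summits, the 100 bp before those held 794, and the first 100 bp of the transcript held 549. Farther out, every 100 bp step beyond 300 bp from the start, on either side, held at most 142. The nearest start was often an alternative one: it was the canonical start of its gene for 1193 regions (27.6%), although 3243 regions (74.9%) had a canonical start within 1 kb. Relative to canonical starts, 84.1% of these lay upstream, with a median of −108 bp. By annotation, 1843 summits fell in introns, 767 in untranslated exon sequence, 86 in coding exons and 1632 outside protein-coding genes.

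**Figure D1:**
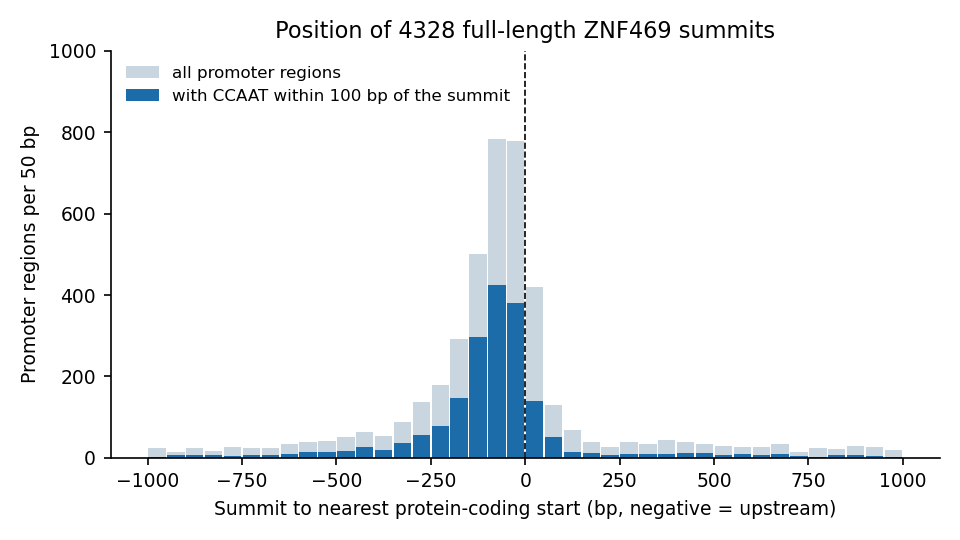
Histogram of the distance from each promoter summit to the nearest start of a protein-coding transcript (x, bp, negative upstream) in 50 bp bins (y, number of regions). Pale bars are all 4328 regions and dark bars those with CCAAT within 100 bp of the summit. Both gather in the 200 bp before the start, which held 55.1% of all summits.

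At the edge of the rule, the FYB1 region lay 1000 bp from a start and was kept, with a fold of 9.57, as was a KRT8 region at 998 bp, with a fold of 4.71. A CCL2 region at 1001 bp, fold 5.41, and a LAMB4 region at 1002 bp, fold 7.89, were left out. The 5 regions just inside and the 5 just outside were all CpG-poor except that at TES.

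The promoter regions touched 4465 of 20015 protein-coding genes, a share of 22.3% (95% interval 21.7 to 22.9). Counting canonical starts only, the number was 3568, or 17.8%. Most regions (3603) were within reach of 1 gene, 666 of 2 genes, 55 of 3 and 4 of 4 or more. Conversely, 3902 genes had 1 region, 490 had 2 and 73 had more. COL1A1 had the most, 8, followed by ACIN1 and DST with 5 each. The share differed with the number of annotated starts, from 8.69% of genes with 1 start to 36.8% of genes with over 10. The corresponding shares for canonical starts alone were 8.69% and 25.9%.

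The promoter regions differed from the rest of the list in base composition. In the 500 bp around the summit the median GC content was 59.6%, against 42.4% elsewhere, and the median ratio of observed to expected CpG was 0.744 against 0.18. CpG-rich sequence (a ratio over 0.75 and GC over 55%) surrounded 1907 promoter regions, or 44.1% (42.6 to 45.5). A further 1252 (28.9%) were intermediate and 1169 (27%) were CpG-poor, with a ratio under 0.48. Among the other regions 0.92% were CpG-rich and 95.9% CpG-poor. Regions at noncoding starts only lay between the sets, with 9.18% CpG-rich.

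Read from the genes, regions were found at CpG-rich and intermediate promoters and seldom at CpG-poor ones. Of all 20015 canonical starts 52.4% were CpG-rich, 20.7% intermediate and 26.9% CpG-poor. CpG-rich genes had a promoter region in 28.7% of cases (3011 of 10488; 27.9 to 29.6) and intermediate genes in 26.2% (1085 of 4138; 24.9 to 27.6). CpG-poor genes had one in 6.85% (369 of 5389; 6.2 to 7.55). Most regions in CpG-poor sequence were at alternative starts, since 320 of the 1169 (27.4%) had a canonical start within 1 kb, against 95.1% of CpG-rich regions. Fold varied little with composition. Its median was 7.57 at CpG-rich, 7.48 at intermediate and 7.2 at CpG-poor regions, and over the 4328 regions the Spearman correlation of GC content with fold was 0.0562, given as a description of regions that share the same pooled libraries.

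Of the 14 elements searched, CCAAT most set apart CpG-rich promoters with a region from those without. Within 100 bp of the summit, 1896 of 4328 promoter regions (43.8%; 42.3 to 45.3) held CCAAT on either strand, against 4010 of 14780 other regions (27.1%; 26.4 to 27.9). Among CpG-rich promoter regions the share was 49.7%, among intermediate ones 50.2% and among CpG-poor ones 27.3%. A window of the same length centred 108 bp upstream of every canonical start, the median place of the summits, held CCAAT in 30.9% of genes (30.2 to 31.5). The members at canonical starts held it in 48.8% (47.1 to 50.5). Against the other full-length regions, 95.9% of them CpG-poor, the GC box differed more than CCAAT. It was within 100 bp of the summit in 49% of promoter regions and 4.55% of the others. In the window at every canonical start it was in 55.8% of genes, against 59.6% of members at canonical starts.

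Within CpG-rich promoters alone, read from 250 bp before to 50 bp after the canonical start, CCAAT was present in 46.6% (44.8 to 48.4) of those with a region. It was present in 27.8% (26.8 to 28.9) of those without. In CpG-poor promoters the shares were 37.7% and 36.8%, with overlapping intervals. The GC box GGGCGG, by contrast, was as common in CpG-rich promoters with a region (82.6%; 81.2 to 83.9) as in those without (83.5%; 82.7 to 84.3).

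In CpG-rich and intermediate promoters, the share with a region was higher with each further box. Among CpG-rich genes it was 23% (22 to 24) with no CCAAT, 32.8% (30.9 to 34.8) with 1 and 48% (44.6 to 51.5) with 2. With 3 boxes it was 58.3% (52.5 to 63.8), and with 4 or more it was 72.9% (113 of 155; 65.4 to 79.3). No interval overlapped that of a neighbouring number of boxes. Counting regions at canonical starts only, the corresponding shares were 17%, 28.5%, 44.6%, 56.2% and 72.3%. Intermediate promoters followed the same order, from 21.2% with none to 63.2% with 4 or more, although the intervals for 3 and for 4 or more overlapped. CpG-poor promoters stayed between 6.11% and 13.3% for 0 to 3 boxes, and none of 17 with 4 or more had a region (upper limit 18.4%).

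**Figure D2:**
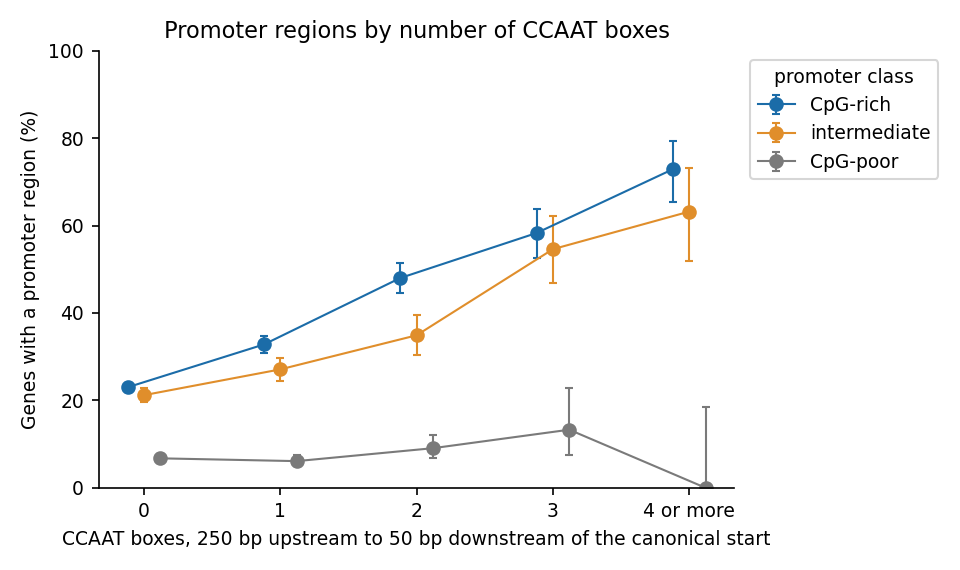
Share of genes with a promoter region (y, %) by the number of CCAAT boxes from 250 bp before to 50 bp after the canonical start (x), for CpG-rich, intermediate and CpG-poor promoters. Points are shares and bars 95% Wilson intervals. The CpG-rich share runs from 23% with no box to 72.9% with 4 or more, while that of CpG-poor promoters is at most 13.3%.

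Fold was also higher with more boxes. The median fold was 7.14 in the 2432 regions with no CCAAT within 100 bp of the summit, 7.51 in the 1069 with 1 and 8.27 in the 538 with 2. It was 8.53 in the 216 with 3 and 9.15 in the 73 with 4 or more. The median pileup went from 20 to 26 fragments over the same steps while the median local background stayed between 1.67 and 1.88. The middle ranges overlapped widely, with quartiles of 6.2 and 8.38 without a box and 7.88 and 10.4 with 4 or more. Read the other way, 33.5% of the 1082 regions of lowest fold held CCAAT, and 58.6% of the 1082 of highest fold. The number of GC boxes gave no such series, with medians of 7.2 for none, 7.75 for 1 and 7.78 for 4 or more.

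Within CpG-rich promoters the boxes themselves differed little between those with and without a region. The next 2 bases were CA, GA, CG or GG, which extend the element, in 58.4% of 2514 boxes with a region and in 57.3% of 2873 without. Boxes stood on the gene strand in 50.8% and 48.4% of cases. Neighbouring boxes were 44 bp apart at the median in both sets. The 50 bp from −100 to −50 held most boxes in both, 33.3% and 35%, while the 50 bp next to the start held 12.3% and 15.9%.

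Around the summits of members at canonical starts, 11.3% held a box within the 20 bp just downstream of the summit, against 2.53% in the outermost upstream 20 bp shown. The other full-length regions stayed between 2.72% and 3.63% at every distance. By median distance the boxes lay slightly nearer to the summit than to a fixed place, but around the fixed place they were more concentrated, off its centre. There 14.4% of promoters held a box 40 to 60 bp downstream, while no 20 bp around the summits exceeded 11.3%. Read around a fixed place 108 bp upstream of the canonical start, the same 3243 promoters held CCAAT within the same distance in 48.3% (46.6 to 50) of cases, against 48.8% around the summits. The median distance to the nearest box was 26 bp from the fixed place, itself the median place of the summits, and 24 bp from the summit. In 40.5% and 44.3% of promoters with a box, respectively, the nearest was within 20 bp. GC boxes, not drawn, also gathered at the summits of CpG-rich promoter regions. There 16.4% held a GC box in the 20 bp just downstream, against 3.72% in the outermost upstream 20 bp. For CCAAT the same regions had 12.5% and 2.25%.

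**Figure D3:**
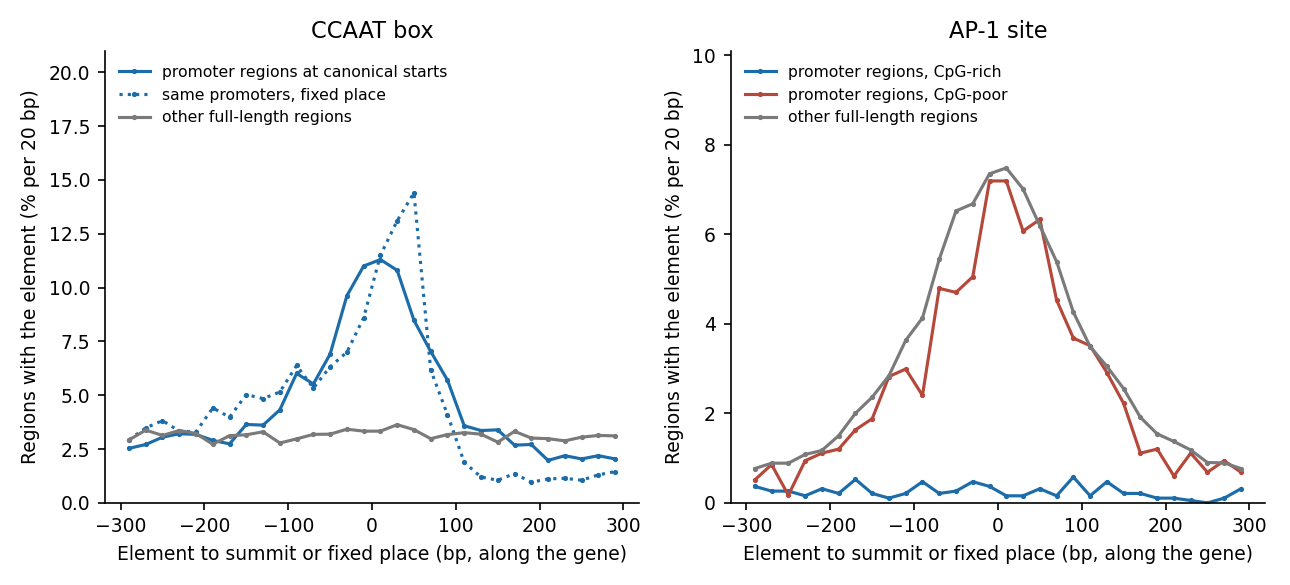
Share of regions with a CCAAT box (left) or an AP-1 site (right) per 20 bp (y, %) by distance of the element from the summit (x, bp). For CCAAT the dotted line reads the same promoters around a fixed place 108 bp upstream of the canonical start. The dotted line is highest, 14.4%, at 40 to 60 bp downstream of that place. CCAAT peaks at promoter summits and is flat around other regions, while AP-1 peaks at CpG-poor promoter summits (7.19%) and at other regions (7.48%) but not at CpG-rich promoter summits.

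Other elements, which apart from the GC box were rarer, showed smaller differences in percentage points within CpG-rich promoters. YY1-type AAGATGGC was in 6.84% of those with a region (5.99 to 7.8) and 4.41% of those without (3.97 to 4.9). ACTACAA, which occurs beside ZNF143 sites, was in 4.28% (3.62 to 5.07) against 2.74% (2.4 to 3.14). The ZBTB33-type element TCTCGCGA was in 3.55% (2.95 to 4.28) against 2.3% (1.98 to 2.67). The NRF1 element CGCATGCG was in 5.31% (4.57 to 6.17) against 4.09% (3.67 to 4.57), with intervals that touch. ETS-type CCGGAAG was in 21.1% (19.7 to 22.6) against 18.3% (17.5 to 19.2). For E2F, E-box, CRE, TATA, AP-1, TEAD and RUNX elements the intervals overlapped. Read from the element, 38.4% of CpG-rich promoters with AAGATGGC had a region, 38.6% with ACTACAA and 38.4% with TCTCGCGA. These shares were near the 40.3% with CCAAT, with overlapping intervals. Without the element the shares were 28.2%, 28.4% and 28.4%, against 23% without CCAAT.

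**Figure D4:**
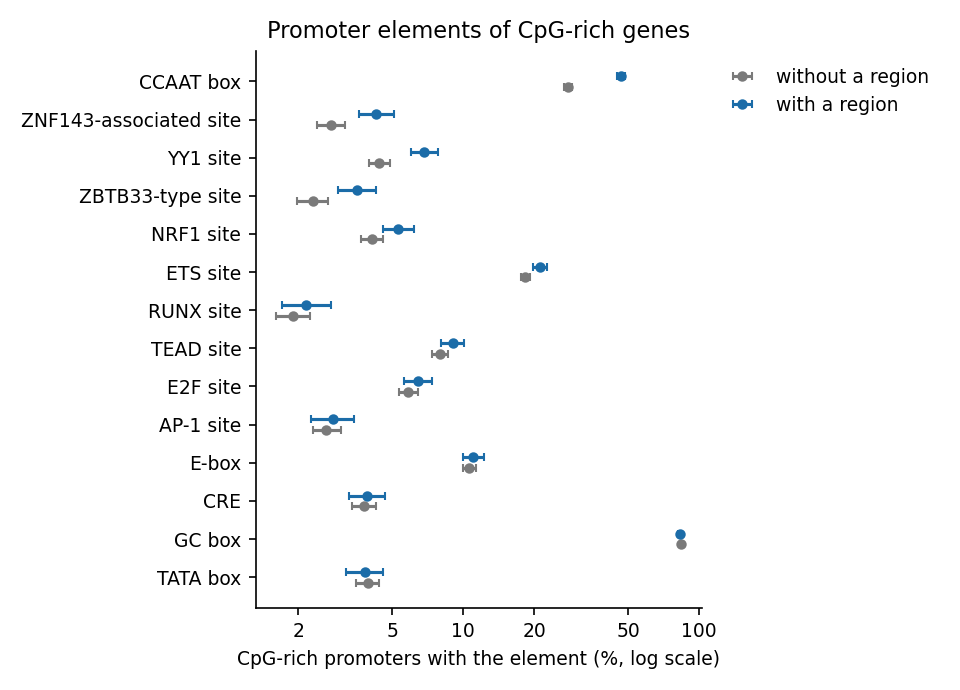
Share of CpG-rich promoters that hold each of 14 elements from 250 bp before to 50 bp after the start (x, %, log scale), for genes with and without a promoter region. Points are shares and bars 95% Wilson intervals. The separation is widest for CCAAT, 46.6% against 27.8%, and the GC box does not separate the sets.

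AP-1 sites were found in the CpG-poor promoter regions instead. TGANTCA lay within 100 bp of the summit in 518 of 1169 CpG-poor promoter regions (44.3%; 41.5 to 47.2), a share near the 49.7% of the other full-length regions. It was present in 8.47% of intermediate and 2.78% of CpG-rich promoter regions. TEAD-type GGAATG had the same order, at 20.5%, 10.8% and 6.71%. Both examples below are CpG-poor, lie in introns near alternative starts and carry a pair of AP-1 sites, shown in capitals in 121 bases of hg38 read along the gene.
COL1A1: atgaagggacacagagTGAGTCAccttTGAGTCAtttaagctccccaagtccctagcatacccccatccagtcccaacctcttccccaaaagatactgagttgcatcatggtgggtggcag
WDR1: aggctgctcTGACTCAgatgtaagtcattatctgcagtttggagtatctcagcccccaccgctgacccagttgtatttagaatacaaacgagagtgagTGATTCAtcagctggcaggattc

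The COL1A1 window (chr17:50196904-50197024, minus strand) belongs to the promoter region with the highest pileup, 138 fragments (116 to 163), but the background there was 30.2 and the fold 4.45. The WDR1 window (chr4:10106700-10106820, minus strand), at a gene for a cofactor of actin disassembly, had a fold of 12.9 from 54 fragments (40.6 to 70.5) and a background of 3.28. The COL1A1 pileup was thus higher and its fold lower.

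All 8 COL1A1 regions, at the gene for a chain of type I collagen, were CpG-poor, lay in introns and were counted through alternative transcripts that start within the gene body. None was within 1 kb of the canonical start. Their pileups ran from 79 to 138 fragments and their folds from 2.35 to 4.45, over local backgrounds of 21.3 to 44. COL1A2, which encodes the partner chain, had 1 region (chr7:94423854-94424380) in an intron, 111 bp after an alternative start, with 41 fragments (29.4 to 55.6) and a fold of 8.42. COL3A1 and COL5A1 had none. Across the collagen genes 8 of 44 (18.2%; 9.51 to 32) had a promoter region, but 3 at the canonical start, namely COL12A1 (fold 10.3), COL7A1 (fold 10.9) and COL5A2 (fold 4.41).

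At single promoters, SRGAP2, which encodes a GTPase-activating protein, had the highest fold, 24.1, from 45 fragments (32.8 to 60.2) where 0.906 were expected. It held 4 CCAAT matches, a pair of which overlap as the palindrome CCAATTGG. Its partial copy SRGAP2C had a fold of 17.7 with 32 fragments and 3 matches. These copies and the neighbouring FAM72 genes are near-identical, and their values are uncertain because reads can be split between copies. DIABLO, a mitochondrial protein released in apoptosis, had a fold of 17.2 with 45 fragments. ENSA, an inhibitor of the phosphatase PP2A, had a fold of 17 with 56 fragments, and EEF2KMT, a methyltransferase, a fold of 16.9 with 41. CTNS, the lysosomal cystine transporter, had a fold of 16 with 35 fragments. These 6 all held CCAAT.

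Among the highest folds without CCAAT were PARP2 (18.3), the receptor kinase gene ROR2 (16.6), GSTA4 (16.5), SPAG4 (15.9) and ACAA1 (15.5). The ROR2 region was CpG-poor and lay in an intron, with 64 fragments (49.3 to 81.7). SPAG4 and ACAA1 held 4 and 3 GC boxes.

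After COL1A1, the highest pileups were at VMP1, an autophagy gene (125 fragments; 104 to 149), MTCL1 (94; 76 to 115) and FRMD6 (89; 71.5 to 110). All were CpG-poor intronic regions near alternative starts, with folds of 9.38, 14.5 and 12.2. The widest promoter region, 1500 bp at SSH1, had 18 fragments and a fold of 4.7. PNPLA8 followed with 1389 bp. Width and pileup had a Spearman correlation of 0.281 over the 4328 regions, which share the same pooled libraries.

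The ZNF469 gene itself had a region of 1379 bp (chr16:88427703-88429081), the third widest of the promoter regions, which fell in its coding exon 443 bp after an alternative start. Its 52 fragments (38.8 to 68.2) stood against a local background of 9.35, for a fold of 5.12. The transgene carries the same coding sequence, so fragments from the inserted copies and from the gene cannot be told apart.

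Genes that start back to back were touched more often than others under the 1 kb rule. Of 1824 genes whose canonical start lay within 1 kb of a start on the opposite strand, facing away, 747 (41%; 38.7 to 43.2) had a promoter region. Of the other 18191 genes 20.4% (19.9 to 21) had one. The genes of a pair share their promoter and are not separate observations. With starts at most 1 kb apart, a paired gene can also be counted through a region at its partner's start. That gives it more chances to be counted, and the part of this rule in the shares was not tested. Within CpG-rich promoters the shares were 39.8% (37.1 to 42.5) and 27.2% (26.3 to 28.1), and within intermediate ones 46% (41.8 to 50.3) and 23.3% (22 to 24.7). Among CpG-rich genes without CCAAT near their own canonical start, whatever the partner held, they were 33% (29.8 to 36.5) and 21.8% (20.7 to 22.8). With 3 or more boxes they were 61.4% (50.7 to 71.2) and 63.8% (58.7 to 68.6), with overlapping intervals.

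Counted as pairs, 352 of 912 (38.6%) had a region near a start. In 348 of these a single region was within 1 kb of both starts, which the 1 kb limits on gap and distance make likely from the outset. In 281 of the pairs with a region the strongest summit lay between the starts. Starts were a median of 290 bp apart in pairs with a region and 184 bp apart in pairs without. An example is the promoter shared by DPH3, a gene of diphthamide synthesis, and OXNAD1, chosen from the pairs of high fold because its whole window lies between the starts and holds 2 boxes and at most 30 untranslated bases. It is shown along OXNAD1 (chr3:16265065-16265185, plus strand, hg38) with CCAAT in capitals.
OXNAD1: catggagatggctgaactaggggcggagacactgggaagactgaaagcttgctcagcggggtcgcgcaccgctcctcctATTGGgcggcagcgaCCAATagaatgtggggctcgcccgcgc

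At this summit 36 fragments (25.2 to 49.8) gave a fold of 13.9. Among the pairs of highest fold were FAM72A with SRGAP2, FAM72B with SRGAP2C, SHPK with CTNS, and C2orf76 with DBI. In each of these the summit lay between the starts. The region of DBI, a gene for an acyl-CoA-binding protein, had 40 fragments (28.6 to 54.5) and a fold of 14.8.

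Gene groups were read against the share of all protein-coding genes, 22.3%, and against the median best fold of genes with a region, 7.71. The 22.3% does not allow for CpG class, and the share was 28.7% for CpG-rich and 6.85% for CpG-poor genes. CpG-rich promoters made up 80.2% of cytosolic ribosomal protein genes, 6.67% of hepatocyte markers, 2.68% of the keratin list and 0.24% of olfactory receptors. The part of CpG class in the list shares was not tested. Several housekeeping groups had intervals that lay wholly above the 22.3%. Aminoacyl-tRNA synthetases, which load tRNAs, had a region at 20 of 35 genes (57.1%; 40.9 to 72), led by YARS2 (fold 12.4) and RARS2 (fold 11.6, a region shared with ORC3). The spliceosome list had 23 of 46 (50%; 36.1 to 63.9), led by SNRPD2 (fold 14.4). Chaperones had 40 of 85 (47.1%; 36.8 to 57.6), with DNAJB1 (fold 11.5) and the chaperonin subunit CCT7 (fold 10.6) first, each with 3 CCAAT boxes. In several lists some genes shared 1 region, such as HSPD1 with HSPE1, HARS1 with HARS2 and H2AC15 with H2BC15. Such genes are not separate observations, which the intervals do not allow for. Proteasome genes had 18 of 39 (46.2%; 31.6 to 61.4), led by PSMA6 (fold 13). Cytosolic ribosomal proteins had 32 of 81 (39.5%; 29.6 to 50.4), all at canonical starts, but with a low median best fold of 7.22, and RPL39 (fold 11.6) led them.

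For respiratory chain genes the count was 28 of 87 (32.2%; 23.3 to 42.6), with COX8A (fold 15) and COX6A1 (fold 14.2) at the top. Its interval lay just above the 22.3% background but included the 28.7% of CpG-rich genes. The intervals of DNA replication genes (11 of 31), RNA polymerase II and mediator genes (14 of 46), translation initiation factors (17 of 56) and mitochondrial ribosomal proteins (22 of 78) included the 22.3%. Their strongest members were ORC3 (fold 11.6), MED19 (12.8), EIF2S3 (12.7) and MRPL2 (13.7).

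Replication-dependent histone genes held CCAAT in 85.5% of promoters, yet had a region at 19 of 69 (27.5%; 18.4 to 39) and the lowest median best fold of any list, 6.02. H2BC6 (fold 12.4) led them, and 12 of the 69 promoters were CpG-rich. Of the 14 histone promoters with 4 or more boxes, 4 had a region. Zinc finger genes held CCAAT in 47.2% and had a region at 87 of 508 (17.1%; 14.1 to 20.6), led by ZNF143 (fold 14.8). Solute carriers had 66 of 341 (19.4%), led by SLC2A8 (fold 14.6).

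Of the genes of the FOS, JUN, BATF and ATF families, AP-1 and related factors, 11 of 18 (61.1%; 38.6 to 79.7) had a region. They were FOSB, FOSL2, JUN, BATF2 and ATF genes. ATF4, a regulator of the amino acid stress response, had a fold of 13.6 with 44 fragments (32 to 59.1), and JUN a fold of 12.2 with 74 (58.1 to 92.9). Stellate and myofibroblast markers had 7 of 18 (38.9%; 20.3 to 61.4), an interval that includes the background: ACTA2 (fold 9.01), PDGFRB (8.87), VIM (8.15), SPARC (7.88), SMAD3 (7.67), LOX (7.22) and CCN2 (5.44). Hepatocyte markers had 0 of 15 (upper limit 20.4%, above the 6.85% of CpG-poor genes). Among endothelial and immune markers, a list that also held the epithelial genes KRT19 and EPCAM, CD68 alone (fold 11.1) had one, of 16. Keratins had 13 of 149 (8.72%), led by KRTAP1-5 (fold 10.6), and olfactory receptors 1 of 416, OR14A2. Expression was not measured in these files, so groups of expressed and silent genes were not compared.

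**Figure D5:**
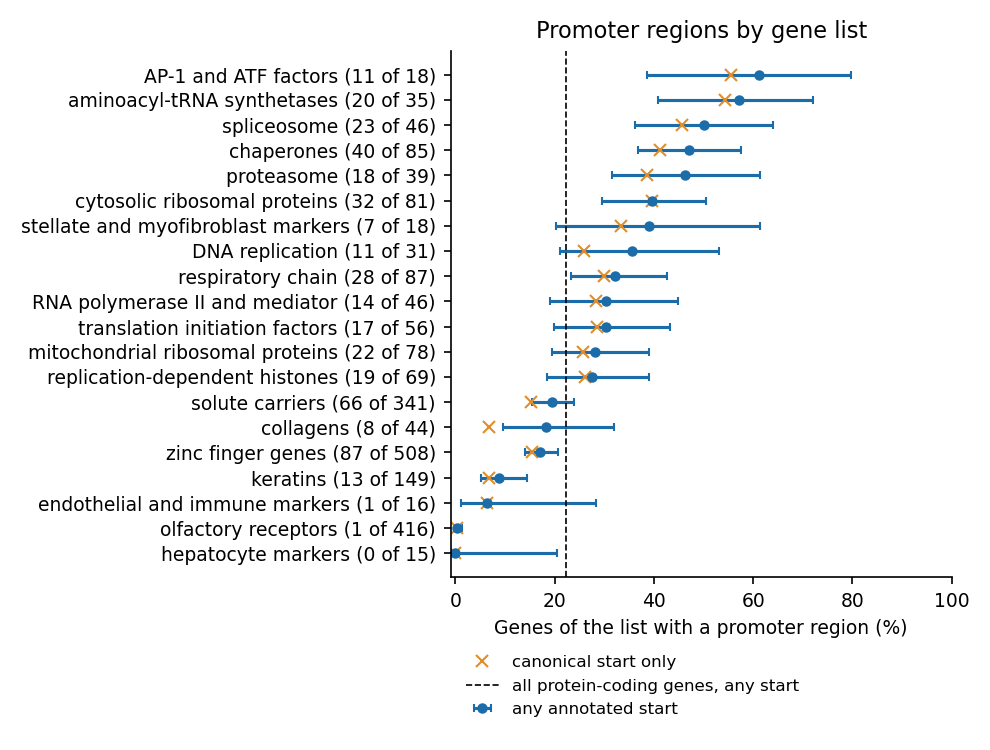
Share of the genes of 20 lists with a promoter region (x, %). Circles with 95% Wilson intervals count any annotated start and crosses the canonical start only. The dashed line is the 22.3% of all protein-coding genes by any start. The share to set beside the crosses, 17.8% by canonical start, is not drawn. The line does not allow for CpG class, which differs between lists. AP-1 and ATF factors (11 of 18) and aminoacyl-tRNA synthetases (20 of 35) stand highest, and olfactory receptors (1 of 416) and hepatocyte markers (0 of 15) lowest.

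The dZF list held 54 regions, and 22 full-length regions (0.115% of 19108) overlapped one. Of the 4328 promoter regions, 2 (0.0462%; 0.0127 to 0.168) were overlapped, against 20 of 14780 others (0.135%; 0.0876 to 0.209). They were at PARP2, a DNA damage response gene, and GSTA4, a glutathione transferase gene. The 121 bases around each summit, along the gene, hold no CCAAT.
PARP2: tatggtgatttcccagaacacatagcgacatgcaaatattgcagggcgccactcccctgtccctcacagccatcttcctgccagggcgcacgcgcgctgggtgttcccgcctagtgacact
GSTA4: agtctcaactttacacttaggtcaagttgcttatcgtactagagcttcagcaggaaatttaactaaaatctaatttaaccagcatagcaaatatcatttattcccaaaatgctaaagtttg

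The PARP2 window (chr14:20343472-20343592, plus strand) belongs to a region with 76 fragments (59.9 to 95.1) and a fold of 18.3 in the full-length list. The dZF region there had 116 fragments (95.9 to 139) and a fold of 37.7, with its summit 15 bp away. The GSTA4 window (chr6:52995458-52995578, minus strand) belongs to a region with 58 fragments (44 to 75) and a fold of 16.5. Its dZF counterpart had 68 fragments (52.8 to 86.2) and a fold of 25.7, with its summit 54 bp away. Depth was not equalized between the lists, so these pileups are set side by side only. Both summits also lay just upstream of a noncoding RNA gene that faces away from the protein-coding gene, 125 bp from RPPH1, the RNA of RNase P, and 103 bp from RN7SK, the 7SK RNA. Both of these are transcribed by RNA polymerase III.

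Across chromosomes the share of genes with a promoter region ran from 32.7% on chromosome 5 to 12.3% on chromosome 21 and 4.44% on Y. The median local background of the members was 2.35 fragments on chromosome 5 and 1.3 on X, where 12.7% of genes had a region. The part of chromosome copy number in these shares was not tested.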

How the data were processed

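CUT&RUN was performed by the authors on 6 libraries, 3 per construct, and deposited as 1 peak list per construct, with the libraries combined and passed through an irreproducible discovery rate filter. Per the labels' processing notes, Bowtie2 2.3.4.3, MACS2 2.2.5, R 4.2.1 and deepTools 3.5.1 were used with hg38. From the deposited lists, the fold enrichment (a ratio), the −log10 p-value and the summit position were used. The deposited score (a scaled discovery rate) and the −log10 q-value were not. The whole-number pileup and its local background were solved from fold and p-value for 100% of records, missing the −log10 p by at most 6.9e-05, and the step was checked on simulated records. Total reads per library were not analysed here, and the pileup sets the precision. Two-sided 95% intervals are Wilson for shares and exact Poisson for pileups.

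Genes, canonical starts and classes came from GENCODE version 44 on hg38, with Y copies of pseudoautosomal genes dropped, leaving 20015 genes. Motifs were counted as exact matches on both strands, overlapping matches included. CCAAT can overlap its reverse as CCAATTGG. Named regions were the 10 of highest fold, highest pileup and greatest width, all overlapped by a dZF region, the 5 leading divergent pairs, the 5 leading regions with and without CCAAT, the leading members of each list, the named collagens and those at the 1 kb limit. Other genes named were chosen after their values were seen. Gene lists were taken by symbol, most of them by its first letters. The list of translation initiation factors therefore includes the kinase genes EIF2AK3 and EIF2AK4, and that of keratins the keratin-associated proteins. The members and lists were chosen with earlier results of these data known. No test was planned or run. Scripts used Python 3.11.15, numpy 2.4.6, pandas 2.3.3, scipy 1.17.1 and pysam 0.24.0. One of the gene pairs of highest fold is not reported here.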

Additional observations from a re-analysis of the deposited data

How the results depend on the processing

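No paired analysis was possible because each deposited list combines its 3 libraries and holds no value per library, and leaving out a library was not run for the same reason. In all 37 alternatives for which promoter regions or divergent genes were set against the others, the direction was as reported. These alternatives reuse the same list and are not independent. The values themselves changed: the CpG-rich share moved in all 7 of its alternatives and the CCAAT share in all 8, as given below. The number of promoter regions overlapped by a dZF region was 2 throughout.

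Promoter limits of 500 bp and 2 kb gave 20.2% and 25.1% of genes with a region, CpG-rich shares of 49.2% and 38%, and CCAAT shares of 46.2% and 41.1%. Canonical starts alone gave 17.8% of genes, a median fold of 7.52, a width of 404 bp, and shares of 55.9% CpG-rich, 48.8% with CCAAT and 38.4% of divergent genes. Any base of a region within the limit gave 23% of genes. The upper 50% by fold left 2237 regions at 12.8% of genes, with a median fold of 8.82, −log10 p of 19.7, width of 422 bp, 46.9% CpG-rich, 51.6% with CCAAT and 24.1% of divergent genes. The upper 25% left 1209 regions at 7.13% of genes, with medians of 9.97, 23.5 and 440 bp, 48.1% CpG-rich, 57.7% with CCAAT and 13.2% of divergent genes. The subsets taken by fold have higher median folds by construction.

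CpG limits of 0.6 and 50% gave 63.9% CpG-rich, and a 200 bp window 41.1%. CCAAT within 50 bp was found in 32.2% and within 200 bp in 55.2% of promoter regions, and CCAATCA or CCAATGA within 100 bp in 18.6%, against 15.1%, 45.9% and 6.51% of the others. Pairs within 500 bp gave 38.7% of divergent genes. At a median of 21 fragments, the pileups of most regions cannot be told apart from one another.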
